A study of Mus musculus with 6 samples.

Results

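The families described here are endogenous retroviruses whose annotation names start with ERVB, MERVK, MMERVK, MYSERV, RMER or BGLII. They were chosen by these 6 name prefixes alone, and 47 of the 302 transposon families in the processed files have such a name. RMER gives 30 of them, ERVB 7, MMERVK 4, MYSERV 3, BGLII 2 and MERVK 1. By their names, 17 are internal parts, which lie between the terminal repeats and hold what is left of the viral genes, and the other 30 carry no internal tag and are counted here as long terminal repeats (LTRs). Most of these names belong to the class II, or ERVK, retroviruses. The files give no class, and a few RMER names, such as RMER5, RMER10A, RMER10B and RMER15, are placed in other classes by repeat annotations.

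Class II endogenous retroviruses are relics of betaretrovirus-like infections of the germline. A full copy has an LTR at each end, which acts as promoter and polyadenylation site, while many copies are solitary LTRs left after recombination. In mouse ES cells such elements are kept silent by DNA methylation and by H3K9me3, which SETDB1 deposits where KRAB zinc finger proteins and TRIM28 bind.

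RNA was sequenced from J1 ES cells, a wild-type male mouse embryonic stem cell line. At D0 the cells were in medium with 15% fetal bovine serum. At D6 and D13 they had spent 6 or 13 days in serum-free medium with 100 µg/ml vitamin C and the kinase inhibitors CT99021 at 3 µM and PD0325901 at 1 µM (2i+vitC). LIF at 1000 U/ml was present throughout, and each day has 2 samples. The study describes these as biological replicates, all from a single cell line, so that the p-values cover only the spread between these samples. The experiment asks how transposon RNA moves as serum-grown cells lose DNA methylation.

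Each sample held between 73230745 and 83688345 reads on genes and between 725940 and 1896202 weighted reads on families. A read that maps to several places was divided among them by the authors, so a family value is a sum over copies and says nothing of single loci. The values are log2 CPM, which is counts scaled to the size of the library. They are not per length or per copy, so levels were not compared between families. The lowest number of reads of a member in a sample was 1.2, for ERVB4_2-LTR_MM, and every other member held at least 19 weighted reads in each sample. Families together took 1.52% and 1.18% of the counted reads in the D0 samples, 2.46% and 1.65% at D6, then 0.964% and 1.20% at D13. The ES cell markers Pou5f1, Sox2, Nanog, Klf4, Esrrb, Zfp42 and Dppa5a were all present, with a summed level from 3141 to 6138 CPM in each sample. They did not move together. In that order, their log2 fold changes were -0.12, -0.33, 2.00, 1.92, 1.19, 0.15 and 0.61 from D0 to D6. From D0 to D13 they were 0.04, -0.69, 1.37, 1.29, 1.02, -0.75 and 1.31. In bulk RNA, fewer cells that express a family and less RNA per cell cannot be told apart. Of the markers of other cells, the fibroblast genes summed to between 10.1 and 29.7 CPM at D0 and between 4.86 and 5.62 CPM later. Col1a1 was at a log2 CPM of 4.21 and 1.87 in the D0 samples. From D6 to D13, Col1a1 changed by log2 -0.41, Col1a2 by -1.73 and Thy1 by 1.29. The 2-cell-like Zscan4 genes fell from between 8.34 and 10.4 CPM at D0 to between 0.260 and 0.553 CPM at D13. The primitive endoderm markers measured, Sox17 and Dab2, summed to between 16.5 and 18.0 CPM at D0 and between 1.53 and 2.13 CPM later. Only Dab2 fell, with log2 fold changes from D0 of -4.32 at D6 and -4.66 at D13, while Sox17 changed by 0.16 and 0.30. The trophoblast markers Eomes and Krt7 summed to 7.94 to 12.0 CPM at D0, 4.73 to 6.65 at D6 and 9.73 to 11.0 at D13. Krt7 changed by log2 -1.79 from D0 to D6 and by 2.20 from D6 to D13, and Eomes by -0.17 and -0.26. Of the 17 markers of other cells, 7 have no row under their name. The gene names in the files have lost the capital G, and no row reads as Gata4 or Gata6 without that letter. The part of these cells in the results was not tested.

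Of the 47 families, 8 passed the threshold between at least 1 pair of days. The share of all 302 families that did so was not computed. The threshold for a family was a difference over 2-fold with an adjusted p under 0.05, from limma with Benjamini-Hochberg adjustment over all genes and families. From D0 to D6, 7 members rose, which is 14.9% of them, against 12.9% of all 302 families, so the members' share was near the background. None fell from D0 to D6, where 0% of all families fell. At an unadjusted p under 0.05 by limma, 0 members and 1 of 302 families were lower. The 7 that rose are the LTR families BGLII and BGLII_A, both parts of ERVB4_2, and the internal parts of ERVB2_1A, MMERVK10D3 and RMER16. Over all members, 42 of 47 had a higher mean at D6 than at D0, against 220 of 302 families. The median of the members' log2 fold changes was 0.35, against 0.18 over all families.

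From D0 to D6, the LTR and the internal part of ERVB4_2 had the largest changes among the members. ERVB4_2-I_MM, the internal part, was at a log2 CPM of 0.40 and -0.17 in the D0 samples, at 4.86 and 3.89 at D6, then at 3.12 and 1.88 at D13. Both D6 samples lay above both D13 samples, which lay above both D0 samples. From D0 to D6 it rose by 4.26 on the log2 scale (standard error, SE, 0.50, limma adjusted p = 0.00044), and at D13 it was still 2.39 above D0 (limma adjusted p = 0.0055). ERVB4_2-LTR_MM, the terminal repeat of the same name, was at a log2 CPM of -4.35 and -5.71 at D0, at 2.35 and 1.44 at D6, then at 1.79 and 0.08 at D13. The D0 samples lay far below the others, while D6 and D13 overlapped. Its D0 values stand for 3.4 and 1.2 weighted reads. Summed over the samples of a day and rounded, 5 reads at D0 stood against 632 at D6 and 325 at D13. After scaling to CPM, the ratio to D0 was 128 at D6, with a binomial 95% interval from 54.6 to 396. At D13 it was 73.7, with an interval from 31.2 to 228. These intervals treat the rounded sums of weighted reads as whole counts, and cover counting error only. The fitted log2 fold change of 6.92 at D6 (SE 0.75, limma adjusted p = 0.00029) rests in part on the offset added to the D0 reads.

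The other ERVB family that rose, ERVB2_1A-I_MM, is an internal part too. Its log2 CPM was -1.47 and -1.79 at D0, 2.75 and 1.41 at D6, then -0.06 and 0.27 at D13, so that the 3 days did not overlap. From D0 to D6 it rose by 3.71 (SE 0.54, limma adjusted p = 0.0014). The difference of 1.74 between D0 and D13 passed with all 6 samples (limma adjusted p = 0.030), but not without D0 replicate 1 (adjusted p = 0.055), D0 replicate 2 (0.091), D13 replicate 1 (0.082) or D13 replicate 2 (0.109). The 4 remaining ERVB families, ERVB4_1B-I_MM, ERVB4_1C-LTR_Mm, ERVB5_1-I_MM and ERVB7_1-LTR_MM, changed by 0.34 to 0.40 by D6, which did not pass. ERVB7_1-LTR_MM, which had the highest mean of the prefix, was at 5.80 and 5.27 at D0, 6.22 and 5.54 at D6, then 6.25 and 5.51 at D13. Replicate 1 was the higher on each day and the 3 days overlapped.

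**Figure D1:**
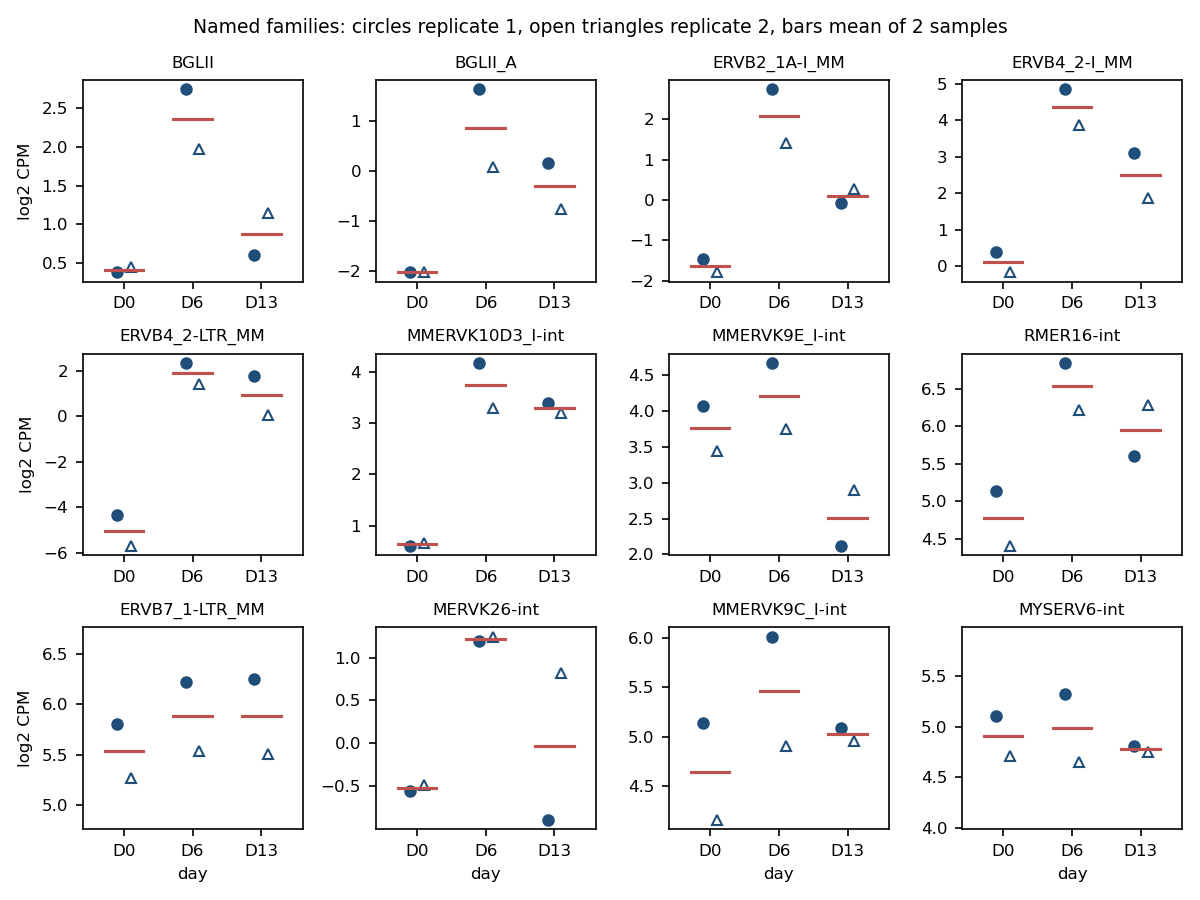
Log2 CPM (vertical axis, a scale of its own in each panel) of 12 families by day (horizontal axis), with the 8 families called in any comparison first and then 4 uncalled families that have the highest mean of their prefix. Filled circles are replicate 1, open triangles replicate 2 and bars the mean of the 2 samples. In the 7 families that rose by D6, both D6 samples lie above both D0 samples, which follows from how they were called. The same holds for MERVK26-int, which was not called.

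Among the 4 MMERVK families, all of them internal parts of betaretrovirus-like elements, 1 rose by D6 and 1 was lower at D13 than at D0. MMERVK10D3_I-int was at a log2 CPM of 0.60 and 0.67 at D0, 4.17 and 3.30 at D6, then 3.39 and 3.21 at D13. Its D0 samples lay close together and well below the rest, and D6 and D13 overlapped. By D6 it had risen by 3.10 (SE 0.36, limma adjusted p = 0.00042), and it was 2.66 above D0 at D13 (limma adjusted p = 0.00063). On the CPM scale, the mean went from 1.55 at D0 to 14.0 at D6 and 9.86 at D13.

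MMERVK9E_I-int took the other direction. Its log2 CPM was 4.07 and 3.44 at D0, 4.67 and 3.75 at D6, then 2.12 and 2.89 at D13. Both D13 samples lay below all others, while D0 and D6 overlapped. It was 2.38-fold lower at D13 than at D0 (log2 fold change -1.25, standard error 0.41, limma adjusted p = 0.038). The call did not hold without D0 replicate 1 (-0.94, adjusted p = 0.18) or without D13 replicate 1 (-0.86, adjusted p = 0.21). MMERVK9C_I-int, the family of nearest name, was at 5.14 and 4.16 at D0, 6.01 and 4.91 at D6, then 5.09 and 4.96 at D13, with no call and with days that overlapped. MMERVK10C-int, which shares its first letters with the family that rose, differed from D0 by 0.39 at D6 (SE 0.50, limma adjusted p = 0.64) and by -0.70 at D13 (adjusted p = 0.29).

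Both BGLII families, LTRs named without an internal part in the files, rose at D6. BGLII was at a log2 CPM of 0.38 and 0.45 at D0, 2.75 and 1.98 at D6, then 0.60 and 1.15 at D13. BGLII_A was at -2.02 in both D0 samples, at 1.63 and 0.07 at D6, then at 0.15 and -0.75 at D13. The D0 samples of each lay close together and below the D6 samples, and the D13 samples lay between, except that D13 replicate 1 of BGLII_A was above D6 replicate 2. The log2 fold changes from D0 to D6 were 1.94 for BGLII (SE 0.42, limma adjusted p = 0.010) and 2.87 for BGLII_A (SE 0.64, limma adjusted p = 0.011). Both calls rest on D6 replicate 1. Without it, the changes were 1.56 (adjusted p = 0.16) and 2.09 (adjusted p = 0.16). At D13 neither passed against D0, with 0.46 for BGLII (adjusted p = 0.40) and 1.72 for BGLII_A (adjusted p = 0.057). BGLII_A passed when limma was fitted without a variance trend (adjusted p = 0.039).

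RMER16-int was the only member of the 30 RMER families to pass. It was at a log2 CPM of 5.14 and 4.40 at D0, 6.85 and 6.22 at D6, then 5.60 and 6.29 at D13. The D0 samples were below the others, and D13 replicate 2 lay between the D6 samples. The rise to D6 was 1.77 (SE 0.35, limma adjusted p = 0.0065). At D13 it was 1.18 above D0 (limma adjusted p = 0.025), a call that did not hold without D0 replicate 2 (0.81, adjusted p = 0.15) or D13 replicate 2 (0.83, adjusted p = 0.13).

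The other 29 RMER families had a median change of 0.20 by D6 on the log2 scale, with a range from -0.47 to 1.21. At D13 the median difference from D0 was -0.18, and 19 of the 29 had a lower mean than at D0. Over all families that median was -0.10, and 177 of 302 had a lower mean. All 5 internal parts among the 30 RMER families had a higher mean at D6 than at D0, with a median of 0.91, against 20 of 25 LTRs, with a median of 0.18. Within an RMER name this could be set side by side. RMER17A-int changed by 1.21 (SE 0.59) and its LTR by 0.33 (0.45), RMER17C-int by 0.91 (0.52) and its LTR by 0.18 (0.46), and RMER15-int by 0.10 (0.50) and its LTR by -0.10 (0.53), none of which passed. Outside RMER, the ERVB4_2 pair had the other order, with 6.92 for the LTR, which had few D0 reads, and 4.26 for the internal part. The difference between internal parts and LTRs was not tested. RMER19A, an LTR, had the lowest adjusted p of the other 29 RMER families from D0 to D6, with a change of 1.18 (SE 0.43, limma adjusted p = 0.086).

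MERVK26-int, the only MERVK name, was at -0.56 and -0.48 at D0, 1.19 and 1.24 at D6, then -0.89 and 0.82 at D13. Its D0 and D6 samples did not overlap, but the D13 samples lay far apart, and the change of 1.74 by D6 did not pass (SE 0.58, limma adjusted p = 0.063). It passed without D13 replicate 1 (adjusted p = 0.020) and without D13 replicate 2 (adjusted p = 0.024), which are not part of that comparison but add to the estimate of the spread, and it also passed with only the D0 and D6 samples (adjusted p = 0.020). Of the MYSERV families, elements of which only internal parts were listed, none passed. MYSERV6-int, the highest of the prefix, was at 5.11 and 4.71 at D0, 5.33 and 4.65 at D6, then 4.81 and 4.75 at D13, and the 3 days overlapped. MYSERV16_I-int was 1.15 higher at D6 than at D0 (SE 0.49, limma adjusted p = 0.13), and without D6 replicate 2 this passed, at 1.82 (adjusted p = 0.034).

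**Figure D2:**
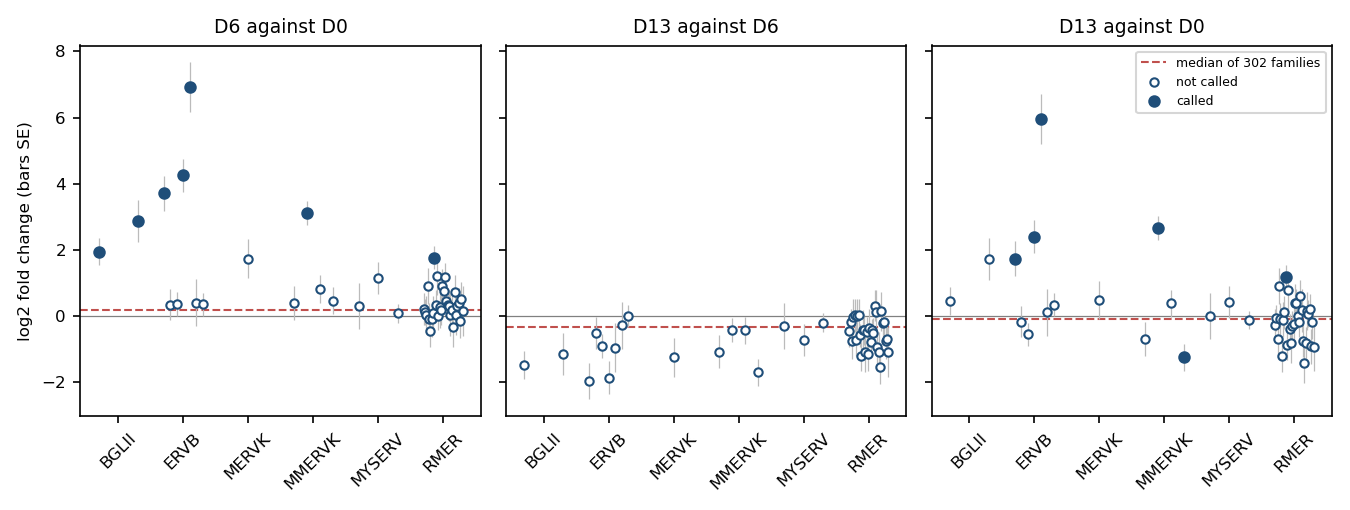
Log2 fold change (vertical axis, shared by the panels) of the 47 families by name prefix (horizontal axis) for D6 against D0, D13 against D6 and D13 against D0. Bars are standard errors of the limma fit, filled points passed the threshold, and the dashed line is the median of the 302 families. The 7 families that rose by D6 lie above all others in the left panel, and no point is filled in the middle panel.

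From D6 to D13, no member passed in either direction. The tool was limma, and 3.97% of all families fell and 0% rose in this comparison. By limma at an unadjusted p under 0.05, 7 of 47 members were lower and 0 higher, against 43 and 2 of 302 families. By mean, 42 of 47 members were lower at D13 than at D6, against 233 of 302 families, with a median of -0.53 against -0.35 on the log2 scale. Nearest to the threshold were MMERVK9E_I-int at -1.70 (limma adjusted p = 0.054), ERVB4_2-I_MM at -1.87 (0.066), ERVB2_1A-I_MM at -1.97 (0.070) and BGLII at -1.49 (0.077). Without D13 replicate 2, 3 members passed, and the replicate number as a block also gave 3, as set out in the closing section.

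From D0 to D13, 5 members were higher, or 10.6% of them, against 9.27% of all families. They are ERVB2_1A-I_MM, ERVB4_2-I_MM, ERVB4_2-LTR_MM, MMERVK10D3_I-int and RMER16-int. BGLII and BGLII_A, which rose at D6, are not among them. 1 member was lower, MMERVK9E_I-int, against 5.63% of all families that fell. By leave-one-out, ERVB4_2-I_MM, ERVB4_2-LTR_MM and MMERVK10D3_I-int passed in every fit. Without D0 replicate 2 or without D13 replicate 2 the number higher was 3. Without D13 replicate 2 the number lower was 4, and it was 0 without D0 replicate 1 or without D13 replicate 1. The numbers of all families that passed with a sample left out are not given, so those counts have no background. The comparisons of D6 and of D13 with D0 share the D0 samples and are not independent.

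The share of the D6 gain in mean CPM that was still there at D13 was computed for the 7 families that rose. It was 13.4% for BGLII, 17.4% for ERVB2_1A-I_MM, 24.5% for ERVB4_2-I_MM, 33.2% for BGLII_A, 52.7% for RMER16-int, 57.3% for ERVB4_2-LTR_MM and 67.0% for MMERVK10D3_I-int. These shares move by more than 1.5 times when a single library is left out, except that of MMERVK10D3_I-int, which ranged from 50.3% to 100.2%. Without D13 replicate 1 or D13 replicate 2, the share was 22.1% or 4.58% for BGLII, 19.0% or 47.4% for BGLII_A, 12.4% or 36.5% for ERVB4_2-I_MM, 26.4% or 88.2% for ERVB4_2-LTR_MM and 74.9% or 30.6% for RMER16-int. Without D6 replicate 1 it was 32.5% for ERVB2_1A-I_MM and 75.2% for BGLII_A. No order of the families follows from these shares, and whether they differ was not tested. The choice of leaving out samples here was made after seeing the data.

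Summed over the 47 families, the level was 337 and 217 CPM in the D0 samples, 601 and 342 at D6, then 295 and 339 at D13. Only D6 replicate 1 stood clear of the samples of the other days, and D6 replicate 2 was close to D0 replicate 1 and D13 replicate 2. The 7 families that rose gave 40.0 and 25.5 CPM at D0, 184 and 110 at D6, then 74.8 and 96.1 at D13. RMER16-int alone had a mean of 94.9 CPM at D6. These 7 were chosen for being higher at D6 than at D0, so that the separation of those days follows from the choice. The other 40 families gave 297 and 192 CPM at D0, 417 and 232 at D6, then 220 and 242 at D13. As a share of all family CPM, the members took 2.16% and 1.90% at D0, 2.50% and 2.09% at D6, then 2.90% and 2.87% at D13. Both D13 samples were above all others in share, although their sum in CPM was not.

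The 2 samples of a day differed in most members in the same direction. Replicate 1 was higher than replicate 2 in 35 of 47 members at D0 (median difference 0.39 on the log2 scale) and in 44 at D6 (median 0.82), while at D13 it was higher in 9 (median -0.87). Over all 302 families the medians were 0.42, 0.77 and -0.78, and over genes -0.06, -0.02 and 0.01. The shift is thus found over the families of the table and not over its genes. The share of reads on families, given above, moves the same way between replicates. The part of this shift in the changes between days was not tested. It bears on how often a member peaks at D6. With all samples, 38 of 47 members had their highest mean at D6, against 178 of 302 families. Without D6 replicate 1, 20 members did, against 79 families.

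**Figure D3:**
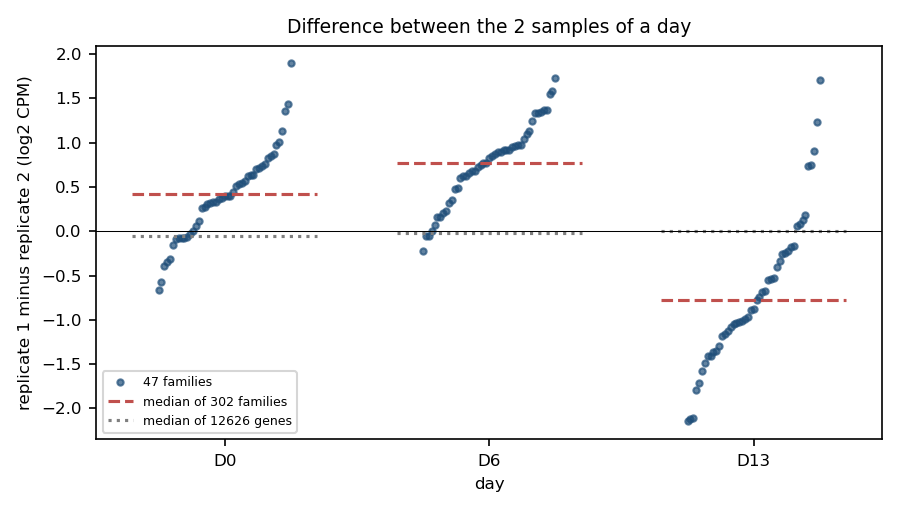
Difference between replicate 1 and replicate 2 (vertical axis, log2 CPM) for each of the 47 families at D0, D6 and D13 (horizontal axis). Points are families in order of value, dashed lines the median of 302 families and dotted lines the median of 12626 genes. Most points are above 0 at D0 and D6 and below 0 at D13, while the gene medians are near 0.

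A list of 24 genes of transposon silencing was examined beside the families. It holds the DNA methyltransferases and their cofactors, the TRIM28 and SETDB1 pathway, H3K9 methyltransferases and HP1 proteins, Polycomb genes, and the chromatin factors Mphosph8, Morc3, Atrx, Daxx and Hells. A gene was called at more than a 4-fold difference and the same adjusted p. From D0 to D6, 3 of 24 passed, all lower, against 9.81% of all genes in either direction. By adjusted p alone, without the 4-fold minimum, 5 were lower and 2 higher in that comparison. From D6 to D13, 0 passed, against 1.09% of all genes. By limma, 6 genes of the list had an unadjusted p under 0.05, and 1 gene had an adjusted p under 0.05 in that comparison. It is Zfp809, a KRAB zinc finger gene that silences retroviruses, at -1.58. The shares of all genes by adjusted p alone or by unadjusted p were not computed, so these looser counts have no background. From D0 to D13, 3 passed, all lower, against 13.5% of all genes.

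The 3 genes are those of de novo methylation. Dnmt3a was at a log2 CPM of 8.14 and 7.83 at D0, 5.41 and 5.74 at D6, then 5.36 and 5.84 at D13. Dnmt3b was at 9.80 and 9.52, then 5.87 and 6.71, then 5.68 and 6.23. Dnmt3l, a cofactor without enzyme activity, was at 8.20 and 7.97, then 2.61 and 3.81, then 2.04 and 1.48. In each of them both D0 samples were above all others, and the log2 fold changes from D0 to D6 were -2.41, -3.37 and -4.87 (limma adjusted p = 0.00026, 0.00016 and 8.3e-05). Uhrf1, which recruits maintenance methylation, was at 8.66 and 8.52 at D0, 9.67 and 9.73 at D6, then 10.3 and 10.2 at D13, a difference of 1.11 by D6 (limma adjusted p = 0.0060), below the 4-fold minimum. Dnmt1, the maintenance methyltransferase, changed by 0.18 (adjusted p = 0.62), Trim28 by -0.23 (adjusted p = 0.62) and Setdb1 by 0.46 (adjusted p = 0.18) over the same days. Of the H3K9 methyltransferases, Suv39h1 was lower at D6 by log2 -1.32 (limma adjusted p = 0.0058) and Ehmt1 by log2 -0.93 (adjusted p = 0.018). Both were short of the 4-fold minimum. Zfp57, a KRAB zinc finger gene, was 0.92 higher at D6 (limma adjusted p = 0.010). At D13, Suv39h1 differed from D0 by -0.23 (limma adjusted p = 0.49) and Zfp57 by 0.07 (adjusted p = 0.79). Ehmt1 was then at -1.16 against D0 (limma adjusted p = 0.0040) and Suv39h2 at -0.89 (adjusted p = 0.011). No relation between these genes and the families was tested.

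For 4 pairs of a gene and a family, the study described transcripts that join the gene to a transposon, and chose them on reads of these samples, so that they are not independent evidence. The gene 4930548H24Rik, paired with BGLII, and the family ERVB7_2B-LTR_MM, paired with Cyp2b23, have no row of that name and were not analysed here. Cyp2b23, a cytochrome P450 gene (GRCm38 chromosome 7, 26665227 to 26686437, minus strand), was at a log2 CPM of 2.16 and 0.10 at D0, 6.63 and 6.51 at D6, then 6.25 and 5.79 at D13. Its D0 samples lay below the others, and the rise to D6 was 5.44 (SE 0.55, limma adjusted p = 0.00023).

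Serpina3m, a serine protease inhibitor gene (GRCm38 chromosome 12, 104338486 to 104394257, plus strand), was at -1.07 and -2.49 at D0, 6.14 and 6.15 at D6, then 6.23 and 6.05 at D13. It rose by 7.93 (SE 0.43, limma adjusted p = 1.4e-05) and differed by -0.01 between D6 and D13. Its family, MMERVK9C_I-int, was 0.81 higher at D6 than at D0 without passing (SE 0.41, limma adjusted p = 0.20). Serpina3m has close paralogs in a gene cluster, so reads that match several of them may be missing from its count or placed wrongly. Xpot, an exportin for tRNA (GRCm38 chromosome 10, 121587380 to 121626332, minus strand), was at 8.07 and 8.35 at D0, 8.15 and 8.35 at D6, then 7.63 and 8.05 at D13, and RMER6B, its family, was 0.51 higher at D6 (SE 0.52, limma adjusted p = 0.54). Neither passed a threshold. The gene and family values here are totals, whereas the study counted reads at the junction of the joined transcripts.

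**Figure D4:**
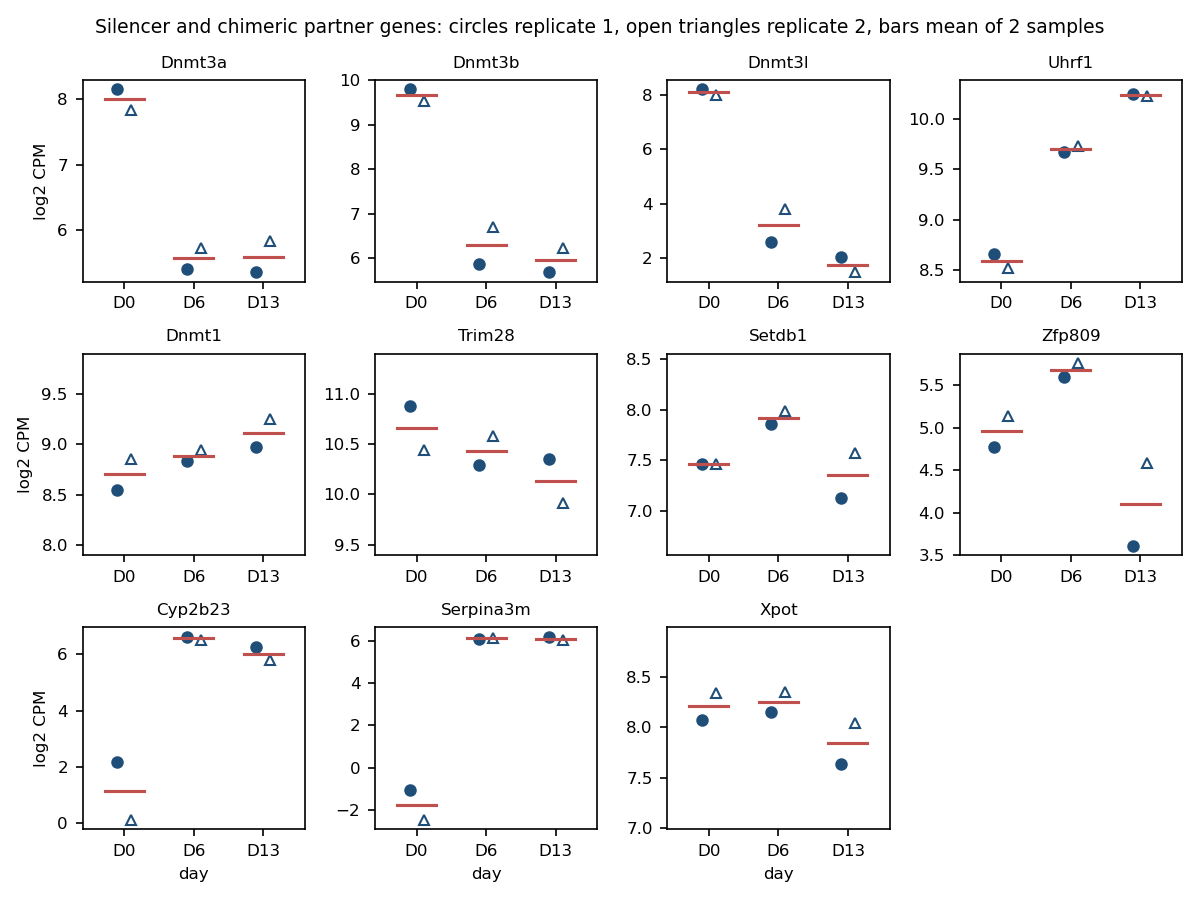
Log2 CPM (vertical axis, a scale of its own in each panel) of 8 silencing genes and 3 genes with transcripts joined to a family, by day (horizontal axis). Filled circles are replicate 1, open triangles replicate 2 and bars the mean of the 2 samples. Dnmt3a, Dnmt3b and Dnmt3l are highest at D0, and Cyp2b23 and Serpina3m lowest.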

How the data were processed

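RNA of 6 samples (J1 ES cells at D0, D6 and D13, 2 each) had been prepared with a stranded mRNA kit and sequenced. For genes, the authors mapped reads onto mm10 with TopHat2 2.0.6 and counted them with HTSeq 0.6.1. For families they mapped reads with Bowtie 1.0.0 without mismatches, dropped reads in exons, gave a read that maps to several places a fraction at each, and summed these fractions over a rebuilt RepeatMasker annotation. They then applied TMM and voom, and the deposited values are log2 CPM. Weighted reads were recovered from these values by the constant of each sample with an offset of 0.5 read, and 3 reads are 0.0344 to 0.0420 CPM.

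Values of 12626 genes and 302 families were tested with limma 3.58.1 (R 4.3.3), 1 mean per day and a variance trend, and p-values were adjusted over all 12928 rows. A family was called at more than 2-fold and a gene at more than 4-fold, both with an adjusted p under 0.05. Standard errors are from this fit. The fit was tested on simulated data. Named members are those called in any comparison, the highest of each prefix and those sharing a stem with a called member. The members, gene lists and tests were chosen with earlier results of these data known. Alternatives were the replicate number as a block, the 2 days compared alone, a read minimum, precision weights, no variance trend, centring on the median gene, log2(CPM + 1), other thresholds, no RMER names and each sample left out. Gene positions are from GENCODE vM21 on GRCm38. Tables used Python 3.11.15 and pandas 2.3.3. Retroviral sequences and positions of copies were not analysed here.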

Additional observations from a re-analysis of the deposited data

How the results depend on the processing

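With 2 samples a day, an SD rests on 2 values and the test has little power for changes near 2-fold. Of the 45 log2 fold changes of named members and genes, 17 were called and 0 of these changed sign under an alternative, while 11 of the 28 uncalled ones did. Of 585 alternative values, 14 lost the threshold, 11 gained it and 17 changed sign. The read minimum of 10 in 2 samples left out 0 rows, and no member name is cut short, so these alternatives equal the values reported. Leaving out each sample in turn gave 5 to 8 members higher at D6 than D0, 3 to 5 higher and 0 to 4 lower at D13 than D0, 0 to 3 lower at D13 than D6, 3 to 4 silencing genes called, and 20 to 44 members with the highest mean at D6. An adjusted p under 0.01 gave 3 higher and 0 lower at D13 than D0, and no variance trend gave 0 lower. The numbers of all families called under these alternatives, or with a sample left out, are not given. These counts of called members therefore have no background. For D13 against D0, ERVB2_1A-I_MM did not pass with only these 2 days (adjusted p = 0.055), with precision weights (0.066) or on log2(CPM + 1) (0.15), and MMERVK9E_I-int did not pass without a trend (0.053). A 2-fold minimum called 7 silencing genes in place of 3, and the share of all genes at that minimum was not computed.

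The replicate number as a block gave 3 members lower at D13 than D6 (ERVB2_1A-I_MM, ERVB4_2-I_MM and MMERVK9E_I-int) and 2 lower at D13 than D0 (RMER13B besides MMERVK9E_I-int), with 8 higher at D6 than D0, MERVK26-int added (adjusted p = 0.033), and 6 higher at D13, BGLII_A added (0.029). The number of all families called with the block is not given, so these counts have no background either. The pairing of same-numbered samples is not stated as a shared culture. The difference between replicates correlated across members at 0.65 for D0 with D6, 0.40 for D6 with D13 and 0.36 for D0 with D13, but at -0.13, 0.33 and 0.14 across genes, which are not independent replicates.

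The uncalled changes that turned had these lowest and highest values when a sample was left out. ERVB7_1-LTR_MM ranged from -0.38 to 0.37 between D6 and D13 (0.06 when centred on the median gene) and from -0.029 to 0.72 between D0 and D13. MERVK26-int ranged from -0.37 to 1.34 between D0 and D13. MMERVK9C_I-int ranged from -0.99 to 0.11 between D6 and D13 and from -0.11 to 0.87 between D0 and D13, and MMERVK9E_I-int from -0.0047 to 0.91 between D0 and D6. MYSERV6-int ranged from -0.26 to 0.42, from -0.54 to 0.14 and from -0.32 to 0.070 over D0 to D6, D6 to D13 and D0 to D13. Serpina3m ranged from -0.10 to 0.083 between D6 and D13 (0.050 when centred) and Xpot from -0.10 to 0.18 between D0 and D6 (-0.012 when centred).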
